A study of Mus musculus with 99 samples.

Results

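The Hedgehog pathway genes Shh, Ihh, Dhh, Ptch1, Smo, Hhip, Gli1, Gli2 and Gli3 were followed in mouse embryonic stem cells (ESCs) that lost the Polycomb ubiquitin ligase or kept it in an inactive form. They were taken by name, 9 of the 55341 genes counted by RNA-seq, together with every ChIP-seq peak within 2.5 kb of one of them, which came to 552 of the 408060 peaks in 74 peak lists. One of the 9 passed the full test for change: Dhh rose 23.7-fold in cells without RING1B and 20.0-fold in cells with inactive RING1B, where 15.1% and 12.8% of all tested genes were called higher. With a wild-type RING1B transgene Dhh was 7.9-fold higher, which was not called. Its counts were low, and the difference in effect from cells without RING1B did not pass the test. Gli2 was 2.14-fold lower without RING1B and 1.58-fold lower with inactive RING1B, under the fold threshold. Before its removal RING1B had a peak within 2.5 kb of 8 of the 9 genes, beside 19.5% of coding genes, and at the promoter of 7; Gli2 had none, and that of Gli1 lay past the gene end.

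Parental cells were ROSA26::creERT2 ESCs with no RING1A and a RING1B fl/fl allele. The WT and I53S lines were clones of these cells that carried a tagged RING1B transgene under the pCAG promoter, either wild type or with the catalytically dead I53S change, so that RING1A was absent from all of these groups, untreated ones included. Tamoxifen (OHT, 0.5 µM, +OHT) activated Cre and removed the endogenous RING1B, and ethanol served as vehicle (-OHT). Treatment lasted 72 h for RNA and 48 or 72 h for ChIP. MTF2 KO derivatives were CRISPR clones of the same lines, and Eed fl/fl ESCs were a separate creERT2 line in which OHT removes the PRC2 subunit EED. RNA-seq had 2 libraries for each of Parental, WT, I53S and Eed fl/fl cells, with and without OHT, and replicates were not said to be separate cultures, so p-values measure only the spread between these libraries. ChIP-seq had 1 library per antibody and condition, apart from MTF2 and JARID2 in WT and I53S cells at 72 h (2 libraries), so peak differences have no replicate check and no p-value.

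Hedgehog ligands are secreted proteins that bind Patched receptors. In the absence of ligand Patched holds the membrane protein Smoothened inactive, and GLI2 and GLI3 are processed to or kept as repressors; ligand binding frees Smoothened, and GLI factors then switch on targets that include Ptch1, Hhip and Gli1 themselves, which makes those genes common readouts of signalling. The ligands are developmental regulators, a class of gene that Polycomb repressive complex 1 (PRC1, which ubiquitinates histone H2A, giving H2AK119ub1) and complex 2 (PRC2, which trimethylates histone H3, giving H3K27me3) cover in ESCs. RING1A and RING1B are the alternative catalytic subunits of PRC1. PCGF2 and CBX7 belong to canonical PRC1, PCGF6 and RYBP to variant PRC1, SUZ12 to the PRC2 core, MTF2 and EPOP to PRC2.1, and JARID2 and AEBP2 to PRC2.2.

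On build mm10, the ligand genes lie at chr5:28456815-28467256 (Shh), chr1:74945315-74951672 (Ihh) and chr15:98891152-98898540 (Dhh), all on the minus strand. Ptch1 is at chr13:63508328-63573598 and Hhip at chr8:79965851-80058006 on the minus strand, and Smo at chr6:29735503-29761365 on the plus strand. Gli1 is at chr10:127329882-127341974 and Gli2 at chr1:118834132-119053619 on the minus strand, and Gli3 at chr13:15463235-15730026 on the plus strand. Exon bases shared with another gene made up 28.3% of Shh, 25.2% of Dhh, 6.55% of Gli1, 1.96% of Gli3 and 1.93% of Hhip, and none of Ihh, Ptch1, Smo or Gli2. Reads that lie on shared bases cannot be assigned to a single gene by this counting, which did not use strand.

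The starts of Dhh and Ihh, which carried RING1B, and of Gli2, which did not, are shown as RefSeq promoters of 300 bp on build GRCm38.p6, with 250 bases before and 50 after the start, on the minus strand and with CpG dinucleotides in capitals. The Dhh promoter lies at chr15:98898491-98898790, the Ihh promoter at chr1:74951623-74951922 and the Gli2 promoter at chr1:119053570-119053869. The last line is a stretch of Shh at chr5:28458163-28458462, inside the last exon, where peaks were called in 57 libraries and where variant PRC1 and inactive RING1B peaks met.
Dhh promoter: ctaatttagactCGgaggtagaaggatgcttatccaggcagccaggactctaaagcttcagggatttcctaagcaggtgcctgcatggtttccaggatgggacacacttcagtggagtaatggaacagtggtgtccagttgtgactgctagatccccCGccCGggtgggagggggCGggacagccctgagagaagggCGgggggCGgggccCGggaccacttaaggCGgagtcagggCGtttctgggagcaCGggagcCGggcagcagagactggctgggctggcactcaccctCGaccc
Ihh promoter: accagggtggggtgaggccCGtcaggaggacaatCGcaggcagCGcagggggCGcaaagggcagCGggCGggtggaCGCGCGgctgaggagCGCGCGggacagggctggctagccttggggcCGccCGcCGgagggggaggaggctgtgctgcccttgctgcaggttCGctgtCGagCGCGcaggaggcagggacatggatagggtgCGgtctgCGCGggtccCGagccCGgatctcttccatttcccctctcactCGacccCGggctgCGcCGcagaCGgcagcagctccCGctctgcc
Gli2 promoter: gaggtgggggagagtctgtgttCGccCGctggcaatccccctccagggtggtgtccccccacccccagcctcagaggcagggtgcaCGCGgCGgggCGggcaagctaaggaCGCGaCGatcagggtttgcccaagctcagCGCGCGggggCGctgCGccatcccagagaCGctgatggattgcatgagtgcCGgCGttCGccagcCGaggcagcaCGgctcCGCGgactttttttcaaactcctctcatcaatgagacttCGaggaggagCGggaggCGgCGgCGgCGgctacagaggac
Shh last exon: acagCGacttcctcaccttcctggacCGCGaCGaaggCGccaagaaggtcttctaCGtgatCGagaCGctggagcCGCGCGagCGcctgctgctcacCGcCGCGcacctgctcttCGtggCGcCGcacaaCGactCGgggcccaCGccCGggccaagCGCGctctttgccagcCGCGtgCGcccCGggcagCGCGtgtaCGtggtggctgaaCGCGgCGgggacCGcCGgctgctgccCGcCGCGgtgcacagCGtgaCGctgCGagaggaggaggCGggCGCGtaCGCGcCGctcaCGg
These windows hold 12 CpGs at Dhh, 30 at Ihh, 28 at Gli2 and 49 in the last exon of Shh, against a median of 7 over 32851 promoters of the same length. Dhh was the poorest in CpG of the 7 members whose promoter was matched; Smo had 17, Hhip 30, Gli3 39 and Ptch1 47. A GLI motif (GACCACCCA, either strand) was in none of the 7 promoters and in 0.253% of all promoters, and an E-box (CACGTG, its own reverse complement) was in none of the 7 and in 7.15% of all. Libraries with a peak on the window numbered 50 for Ihh, 35 for Ptch1, 26 for Dhh, 25 for Gli3, 23 for Hhip, 21 for Smo and 12 for Gli2.

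RNA-seq depth was 8140106 to 12743460 counts in the 12 Parental, WT and I53S libraries and 6957248 to 9443814 in the 4 Eed fl/fl libraries. Rnf2, which encodes RING1B, was at 198 and 257 CPM (counts scaled to library size) in Parental -OHT and at 144 and 166 CPM in Parental +OHT libraries (log2 change -0.55, SE 0.20, edgeR adjusted p = 0.0346); counts over the whole gene include the exons outside the deletion and, in the WT and I53S lines, the transgene. Ring1, which encodes RING1A, averaged 1.28 to 3.87 CPM over the groups of these lines and 5.88 and 6.46 CPM in Eed fl/fl cells. Marker lists moved with OHT as well: 7 of 8 tested endoderm markers rose in Parental cells, their summed level going from 3.95-4.96 to 49.7-53.8 CPM, and 4 of 10 ESC markers fell, from 5598-6817 to 3016-3146 CPM. Of the other lists, 6 of 7 trophoblast, 5 of 7 mesoderm, 3 of 5 neural and 3 of 4 fibroblast feeder markers rose there, and 1 neural marker fell. In I53S cells endoderm markers went from 5.84-6.17 to 41.1-42.1 CPM, and in WT cells from 5.02-5.48 to 10.3-14.3 CPM. In bulk RNA, a change in the share of cells of a type and a change in RNA per cell cannot be told apart, and the part of these markers in the results below was not tested. Of the fibroblast feeder markers, Lum, Dcn, Col3a1 and Postn had 0, 1, 2 and 3 counts over the 12 libraries, but 11, 86, 118 and 99 counts over the 4 Eed fl/fl libraries. The rest of that list did not set the Eed fl/fl libraries apart. Col1a1, Col1a2, Fbn1 and Thy1 had 1184, 342, 1598 and 1677 counts over the 12 libraries and 389, 341, 433 and 152 over the 4.

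Levels of different genes were compared as CPM per kb of exon. In Parental -OHT cells the order was led by Gli2 (mean 7.60 CPM per kb, n = 2) and Ptch1 (6.19), which did not overlap. Gli1 (3.47) and Smo (2.02) followed with overlapping libraries, then Gli3 (1.29) and Hhip (0.547). The ligands stood last and overlapped one another, Ihh at 0.0400, Dhh at 0.0370 and Shh at 0 CPM per kb. In Parental +OHT cells Ptch1 came first (4.24), ahead of Gli2 (3.55), Smo (2.83), Gli3 (2.23), Gli1 (1.81), Dhh (1.09), Hhip (0.454), Ihh (0.225) and Shh (0.0470), and no neighbours in this order overlapped. Dhh thus passed Hhip, while Gli2 dropped below Ptch1. I53S +OHT cells kept Gli2 first (8.03), with Dhh at 0.817 CPM per kb, and WT +OHT cells had Gli2 at 12.8, Ptch1 at 6.44 and Dhh at 0.210. The 9 genes summed to 179-194 CPM in Parental -OHT, 137-144 in Parental +OHT, 190-261 in I53S -OHT, 172-188 in I53S +OHT, 230-266 in WT -OHT and 230-244 CPM in WT +OHT libraries.

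**Figure D1:**
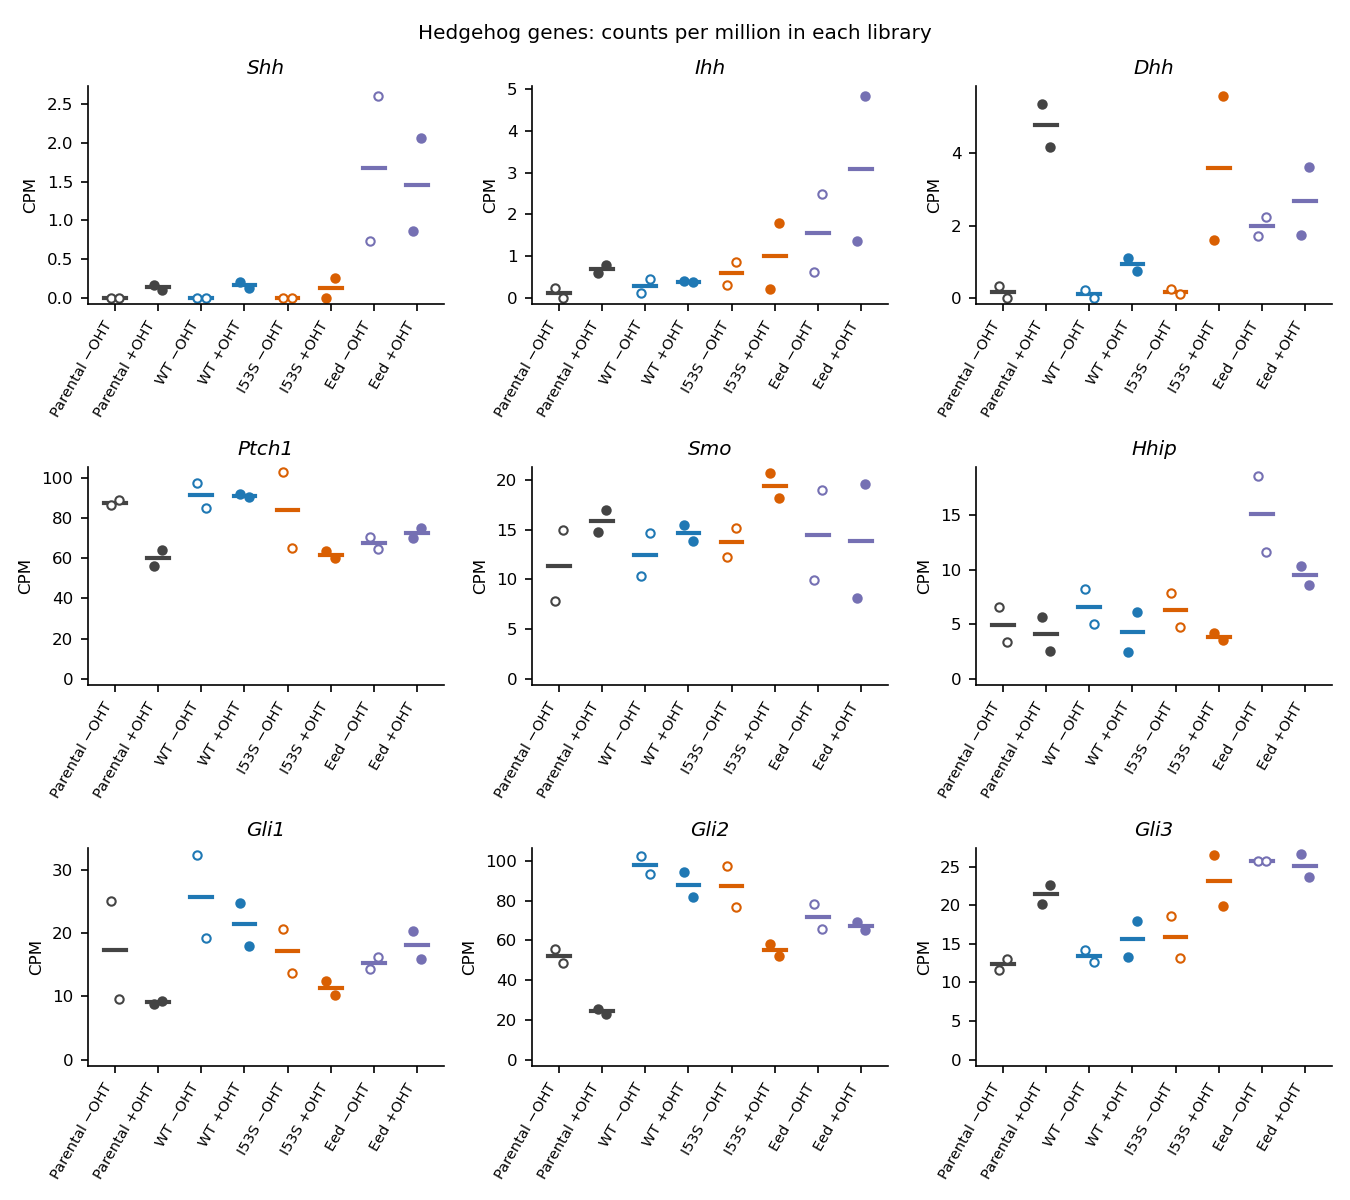
Level of each Hedgehog gene in each RNA-seq library (y axis, CPM on TMM-scaled library sizes; open points -OHT, filled points +OHT, bars the mean of 2 libraries) in Parental, WT, I53S and Eed fl/fl cells. Dhh lies at 4.18 and 5.37 CPM in Parental +OHT against 0 and 0.325 CPM in Parental -OHT, and Gli2 at 23.1 and 25.6 against 48.6 and 55.8 CPM.

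The question for each line was which genes change when OHT removes endogenous RING1B. A gene was called when its log2 change was at least 1.5 in size with an adjusted p under 0.05 (edgeR quasi-likelihood test, Benjamini-Hochberg over 18154 tested genes). Of the 9 members 7 were tested; Shh and Ihh had too few counts. In Parental cells 1 of 7 was called higher, where 15.1% of all tested genes were, and 0 of 7 lower, where 1.83% were. By adjusted p alone 2 of 7 were higher (21.9% of all genes) and 3 of 7 lower (12.4%). In I53S cells 1 of 7 was called higher (12.8% of all) and 0 lower (1.04%), and by adjusted p alone 1 was higher (18.4%) and 1 lower (8.37%). In WT cells 0 of 7 were called in either direction (1.34% of all genes higher, 0.0386% lower), also by adjusted p alone (1.91% higher, 0.308% lower). An unadjusted p under 0.05 was seen for 1 of 7, beside 2875 of all 18154 tested genes, and DESeq2 also called 0. By the full call the members' shares were close to those of all genes, and what follows describes the single genes.

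The ligand genes were near silent in ESCs. Dhh, which encodes Desert hedgehog, the ligand of the testis and of peripheral nerve sheaths, had 4 and 0 counts in Parental -OHT libraries (0.325 and 0 CPM) and 63 and 43 counts in Parental +OHT libraries (5.37 and 4.18 CPM). Both treated libraries were far above both untreated ones. The log2 change was 4.56 (SE 0.84, adjusted p = 0.000344), or 28.1-fold as a ratio of summed counts with a 95% counting interval of 10.6 to 105. In I53S cells Dhh went from 0.231 and 0.0958 CPM to 1.6 and 5.59 CPM, again without overlap, although the treated libraries differed from each other by more than in Parental cells. Its log2 change there was 4.32 (SE 0.85, adjusted p = 0.000802), and 3.14 (adjusted p = 0.0232) without I53S +OHT replicate 2. Without Parental -OHT replicate 1, the Parental change is set against a library at 0 and depends on the prior count.

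In WT cells Dhh had 2 and 0 counts before OHT and 11 and 6 after it, 0.213 and 0 against 1.10 and 0.746 CPM. The libraries did not overlap, but the log2 change of 2.98 (SE 1.12) had an adjusted p of 0.178, and the ratio of summed counts was 9.31 (95% counting interval 2.21 to 83.0). Set directly against each other after OHT, I53S cells were above WT cells by 1.94 on the log2 scale (SE 0.69), with an adjusted p of 0.0668, 0.0121 with no filter on low counts and 0.0603 to 0.0978 under the other settings. With 1 library left out the adjusted p was 0.0232 without I53S +OHT replicate 1 and 0.194 to 0.546 without each of the others, the log2 difference being 0.75 without I53S +OHT replicate 2. The OHT effects in I53S and Parental cells differed by -0.24 (SE 1.51, adjusted p = 1.0), and those in WT and Parental cells by -1.58 (SE 1.85, adjusted p = 0.784), so the differences between the lines were poorly bounded at these counts.

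Dhh shares 25.2% of its exon bases with Rhebl1, a small GTPase gene on the same strand (546 bp), and with the antisense Gm49442 (1107 bp), and the counting did not use strand. Rhebl1 went from 61.9-80.1 CPM in Parental -OHT to 39.0-41.8 CPM in Parental +OHT libraries (log2 change -0.81, SE 0.20, adjusted p = 0.00350), opposite to Dhh. Gm49442 had 2 counts in Parental -OHT and 11 in Parental +OHT libraries, and 2 and 17 in I53S cells, too few to test. Across the 12 libraries the gene whose log2 CPM was most like that of Dhh was Lbp, which encodes a lipopolysaccharide-binding protein (Pearson r = 0.991 among 18153 genes, a description only, since the libraries share their groups).

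Ihh, the Indian hedgehog ligand of cartilage and gut, had 3 and 0 counts in Parental -OHT and 7 and 8 in Parental +OHT libraries. The ratio of summed counts was 5.29 (95% counting interval 1.5 to 28.5). In I53S cells it had 4 and 9 counts without OHT and 2 and 21 with it, so that the groups overlapped, and in WT cells 1 and 4 against 4 and 3 counts, with a ratio of 1.53 (0.419 to 6.12). Shh, the Sonic hedgehog ligand of the floor plate and notochord, had 0 counts in all 6 -OHT libraries of these lines, where 3 counts over a group would be 0.138 CPM in Parental, 0.126 in I53S and 0.152 in WT cells. After OHT it had 2 and 1 counts in Parental, 2 and 1 in WT and 0 and 3 in I53S cells. These counts are at the limit of what this depth can show, and 28.3% of the exon bases of Shh are shared with the non-coding 9530036O11Rik and Gm26894.

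Ptch1, the ligand receptor and itself a GLI target, was at 86.5 and 89.0 CPM in Parental -OHT and at 56.2 and 64.0 CPM in Parental +OHT libraries. The groups did not overlap and the change was -0.55 on the log2 scale (SE 0.21, adjusted p = 0.0454), under the fold threshold; with any 1 of the 4 Parental libraries left out the adjusted p was 0.0874 to 0.262. In I53S cells it spanned 65.2-103 CPM before and 60.1-63.7 CPM after OHT (log2 change -0.45, adjusted p = 0.116), with -0.75 (adjusted p = 0.0254) without I53S -OHT replicate 2 and -0.08 (adjusted p = 0.834) without I53S -OHT replicate 1. In WT cells it spanned 85.3-97.8 and 90.6-92.1 CPM, with a log2 change of 0.00.

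Smo, the transducer that Patched inhibits, was at 7.81 and 14.9 CPM in Parental -OHT and 14.8 and 17.0 CPM in Parental +OHT libraries, which just overlapped (log2 change 0.50, SE 0.29, adjusted p = 0.194). Without Parental -OHT replicate 2 its change was 0.99 with an adjusted p of 0.0384. In I53S cells Smo spanned 12.3-15.2 and 18.2-20.7 CPM (0.50, adjusted p = 0.207). Hhip, the membrane-bound protein that binds and sequesters ligand, spanned 3.33-6.59 and 2.53-5.71 CPM in Parental cells (log2 change -0.28, SE 0.47, adjusted p = 0.687), and it spanned 5.04-8.22 and 2.41-6.09 CPM in WT cells, also overlapping. In I53S cells Hhip spanned 4.79-7.86 and 3.52-4.2 CPM, which did not overlap, with a log2 change of -0.72 (adjusted p = 0.280).

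Gli2, the main activator among the GLI factors, was at 55.8 and 48.6 CPM in Parental -OHT and at 25.6 and 23.1 CPM in Parental +OHT libraries. The groups were far apart relative to their spread (52.2 ± 5.06 against 24.4 ± 1.76 CPM, mean ± SD, n = 2), and the log2 change was -1.10 (SE 0.20, adjusted p = 0.000253). It kept an adjusted p under 0.05 with each Parental library left out (-1.22 to -1.02, adjusted p 0.000766 to 0.00910). In I53S cells Gli2 went from 97.6 and 77.0 CPM to 58.3 and 52.1 CPM (log2 change -0.66, SE 0.19, adjusted p = 0.0135). That change was under the fold threshold and not called, and it was not stable. Without I53S -OHT replicate 1 it was -0.49, and with the I53S libraries fitted alone its adjusted p was 0.105. In WT cells it was at 93.2-102 CPM without and 81.6-94.4 CPM with OHT, overlapping (log2 change -0.15, adjusted p = 0.757).

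After OHT, Gli2 was lower in I53S than in WT cells by 0.67 on the log2 scale (adjusted p = 0.0239); the adjusted p was 0.0639 to 0.205 in 3 of the 4 fits that left out 1 of these libraries. The OHT effect on Gli2 in WT cells was above that in Parental cells by 0.95 (SE 0.27), with an adjusted p of 0.0763, which became 0.0289 with DESeq2 and 0.0344 with these groups fitted alone, but 0.100 to 0.307 with each library left out in turn. Before OHT, Gli2 stood above Parental cells by 0.90 in WT (SE 0.19, adjusted p = 0.133) and by 0.74 in I53S cells (SE 0.19, adjusted p = 0.159), with DESeq2 adjusted p-values of 0.00470 and 0.0304 and left-out ranges of 0.387 to 0.689 and 0.161 to 0.972. Among these comparisons, 0 members were called in the WT-against-Parental difference of OHT effects (1.54% of all genes), 0 in the I53S-against-Parental difference (0%), 0 between I53S and WT cells after OHT (6.62%), and 0 between I53S or WT and Parental cells before OHT (0.154% and 0.0606%). An unadjusted edgeR p under 0.05 was seen for 1, 0, 5, 1 and 1 of the 7 tested members in the same order. Over all 18154 tested genes it was seen for 2586, 488, 5201, 947 and 825. DESeq2 called 0 members in each.

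Gli1, the GLI target that is most often read as pathway output, was at 25.1 and 9.63 CPM in Parental -OHT and at 8.77 and 9.34 CPM in Parental +OHT libraries. The log2 change of -0.96 (SE 0.36, adjusted p = 0.0466) rested on Parental -OHT replicate 1: without it the change was -0.12 (adjusted p = 0.850). Without Parental -OHT replicate 2 the change was -1.5 (adjusted p = 0.00251), and without +OHT replicates 1 and 2 in turn the adjusted p was 0.182 and 0.139. Gli1 spanned 13.7-20.7 and 10.1-12.5 CPM in I53S cells (log2 change -0.61, adjusted p = 0.224) and 19.2-32.2 and 18-24.7 CPM in WT cells (-0.26, adjusted p = 0.773).

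Gli3, the main GLI repressor, went the opposite way from Gli2 in Parental cells, from 11.6 and 13.1 CPM to 20.2 and 22.7 CPM, without overlap. The log2 change was 0.80 (SE 0.26, adjusted p = 0.0219), and with any 1 Parental library left out the adjusted p was 0.0581 to 0.136. In I53S cells it spanned 13.1-18.7 and 19.9-26.5 CPM (0.54, SE 0.25, adjusted p = 0.125), and in WT cells 12.6-14.2 and 13.4-18 CPM (0.22, adjusted p = 0.739). Over the 12 libraries, members whose log2 CPM moved most alike were Gli1 with Gli2 (Pearson r = 0.791), Gli1 with Ptch1 (0.778), Dhh with Gli3 (0.733) and Ptch1 with Gli2 (0.718). These correlations describe libraries that share groups and depth. Of all genes, those most like single members were Tmem131 for Ptch1 (r = 0.970), Cd80 for Gli2 (0.968), Sesn2 for Gli1 (0.936), Limk1 for Smo (0.934) and AC122442.1 for Hhip (0.885).

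**Figure D2:**
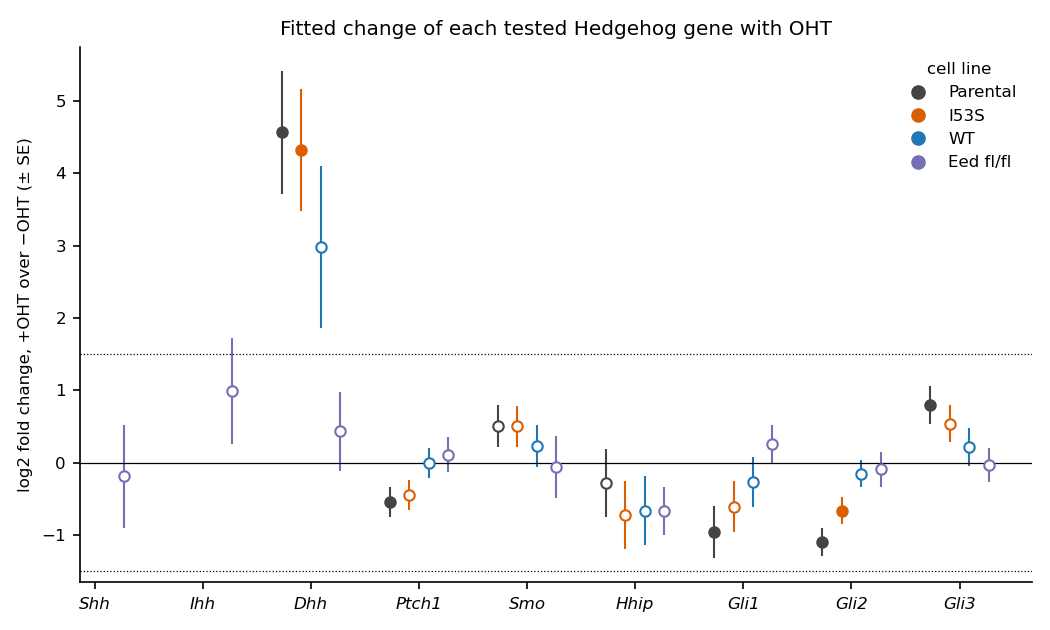
OHT effect on each tested Hedgehog gene (y axis, log2 fold change of +OHT over -OHT; points, edgeR estimate; bars, ± 1 SE) in Parental, I53S, WT and Eed fl/fl cells; filled points have an adjusted p under 0.05 and dotted lines mark 1.5 in either direction. Dhh lies beyond the line in Parental (4.56) and I53S cells (4.32) with filled points, and Gli2 is filled at -1.10 and -0.66.

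Other genes of the pathway were read from lists by role. Of 6 tested genes for ligand processing and release, 4 rose in Parental and 3 in I53S cells, where 15.1% and 12.8% of all tested genes did. Of 5 coreceptors and the second Patched, 2 rose in each. The GLI-responsive developmental list held 15 genes, of which 12 were tested and 7 and 8 rose. In Parental cells 5 of the 12 had 0 counts without OHT. These passed the count filter through other groups and could only rise there, so the counts and medians of this list are a description only. None of the 17 genes of signal transduction or the 9 of the cilium, the organelle in which Smoothened acts, was called in either line, and no gene of any of these lists was called lower or called in WT cells. The median log2 changes in Parental cells were 2.18 for ligand release, 1.62 for coreceptors, -0.04 for transduction, -0.13 for the cilium and 4.55 for GLI-responsive genes (2.85 with genes at 0 counts set to their bound), beside 0.03 over all genes. In WT cells the same medians were 0.62, 0.63, 0.04, -0.04 and 2.7 (0.68 with bounds), beside 0.02.

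Among these genes, Scube1, Scube2 and Scube3, secreted proteins that help release lipid-modified ligand, rose by 2.83, 2.83 and 2.26 on the log2 scale in Parental cells, and Boc, a ligand coreceptor, by 2.60. Lrp2, an endocytic receptor that binds Sonic hedgehog, went from 14.4-17.2 to 66.7-71.5 CPM (2.14, SE 0.24, adjusted p = 1.51e-06) and rose by 1.64 in I53S cells. Foxf1, a forkhead factor of gut and lung mesenchyme, had 0 counts in Parental -OHT and 177 in Parental +OHT libraries, at least 57.7-fold higher, and was at least 47.6-fold higher in I53S cells. Foxf2 was at least 20.4-fold and Foxa2, a floor plate and endoderm factor, at least 5.81-fold higher in Parental cells. The developmental factors Nkx6-1 and Osr1 were at least 13.7-fold and 10.3-fold higher, and Pax1, a sclerotome factor, rose by 5.97 and Hsd11b2 by 3.12 on the log2 scale. Foxa2 is also 1 of the endoderm markers that rose in the same libraries, and the part of those cells in these changes was not tested. By adjusted p alone Mycn was lower in Parental cells (-1.08, adjusted p = 0.00104), as was Spop, an adaptor for GLI degradation (-0.83, adjusted p = 0.00360); in I53S cells they were at -0.28 (adjusted p = 0.396) and -0.45 (adjusted p = 0.114). The ligand-release and GLI-responsive lists held called genes in Parental and I53S cells, and Ptch1 and Gli1, the usual readouts, were not called there. The summed GLI-responsive list was at 257-308 CPM in Parental -OHT and 206-209 CPM in Parental +OHT libraries. In I53S cells it was at 218-220 CPM without and 177.5-263 CPM with OHT. These lists were chosen with earlier results of these data known, and the cause of the changes was not tested.

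No member was called after loss of EED. Of 9 members tested in Eed fl/fl cells, 0 were called, where 2 of 25170 genes (0.00795%) were, and DESeq2 also called 0. An unadjusted edgeR p under 0.05 was seen for 0 members, beside 1372 of the 25170 genes. Dhh was at 1.72 and 2.25 CPM without and 1.73 and 3.63 CPM with OHT (log2 change 0.44, adjusted p = 0.902). Shh was at 0.735 and 2.60 against 0.864 and 2.06 CPM, and Ihh at 0.613 and 2.49 against 1.36 and 4.84 CPM (0.99, SE 0.73, adjusted p = 0.839). The widest change away from the ligands was that of Hhip (-0.67, SE 0.34, adjusted p = 0.833), and Gli2 was at 65.7-78.1 and 65.2-69.5 CPM (-0.09). Eed itself went from 171-254 to 43.1-66.5 CPM (log2 change -1.95, adjusted p = 0.0766), and the -OHT and +OHT libraries of each ligand gene overlapped. This fit took no account of replicate numbers, although Ihh was higher with OHT within each number. Smo was at 9.93 and 19.1 CPM without and 8.14 and 19.6 CPM with OHT in replicates 1 and 2. With the number as a block more genes were called, as given below, and still no member, so the absence of calls is weakly bounded. The Eed fl/fl libraries also held counts of the fibroblast markers named above, some of which were counted in the other lines too. The part of fibroblasts in the ligand levels was not tested.

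ChIP-seq peaks were read as presence or absence of a peak within 2.5 kb of the gene, with the covered length and the highest peak score, which is the -log10 p from MACS2 (10 or more in these lists). Scores rise with library depth and the lists carry no spike-in scaling, so a score or a missing peak is not a level of the mark. Over the 11 antibodies used in all 4 main conditions, 84 of 99 pairs of member and antibody had a peak in Parental -OHT cells (26.9% over all coding genes), 41 in Parental +OHT (12.7%), 85 in WT +OHT (21.3%) and 45 in I53S +OHT cells at 72 h (10.2%). The members' windows were longer than the typical one (median 30863 bp against 22407 bp over 21897 coding genes). The members were thus more often marked than coding genes in every condition, and pairs with a peak numbered close to Parental -OHT in WT cells and close to Parental +OHT in I53S cells.

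**Figure D3:**
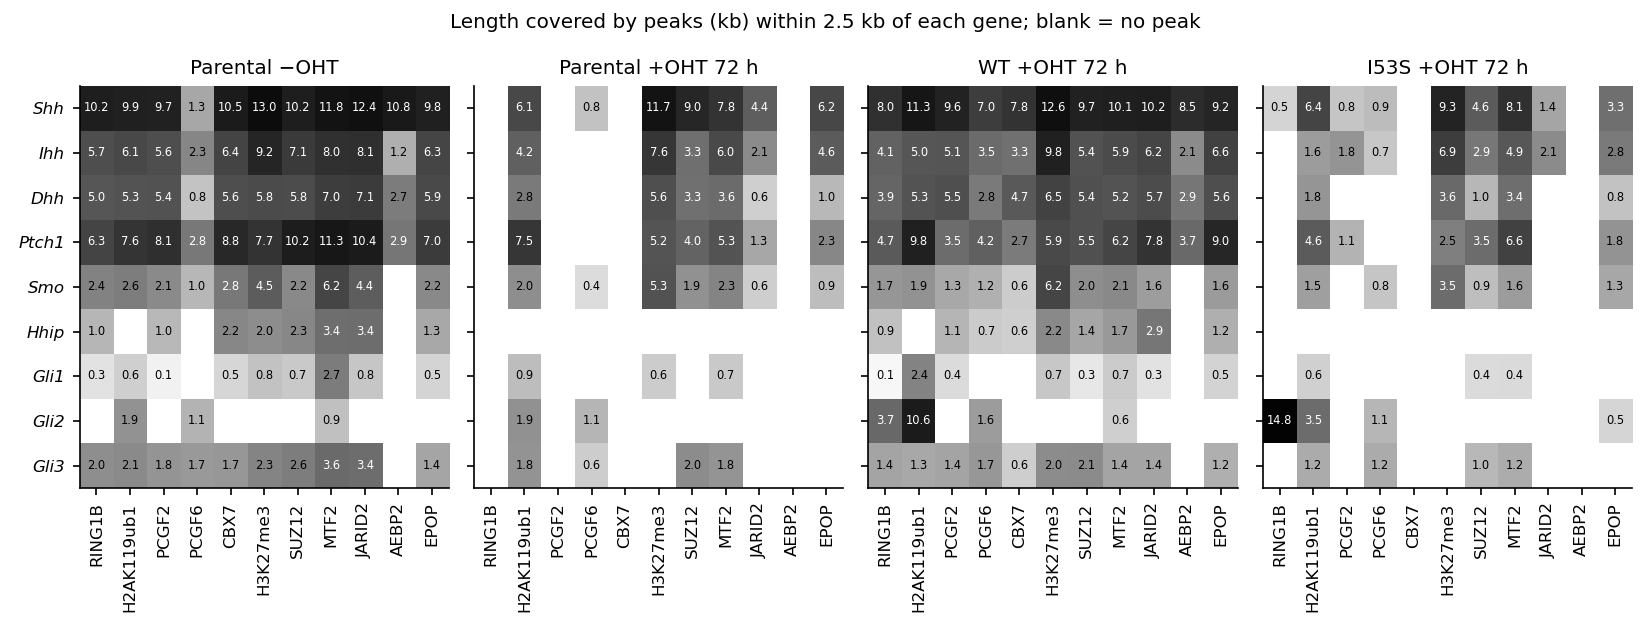
Length covered by peaks at each Hedgehog gene (rows) for 11 antibodies (columns) in Parental -OHT, Parental +OHT, WT +OHT and I53S +OHT cells (colour, kb covered; blank, no peak). RING1B, PCGF2 and CBX7 are blank at all 9 genes in Parental +OHT, H2AK119ub1 and H3K27me3 are not, and the Gli2 row has no H3K27me3 or SUZ12 in any of the 4.

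RING1B peaks lay at 8 of 9 members in Parental -OHT cells (19.5% of coding genes), at 0 in Parental +OHT (2.36%), at 9 in WT +OHT (15%) and at 2 in I53S +OHT cells (4.19%). In Parental -OHT cells they covered 10.2 kb at Shh (score 189), 5.66 kb at Ihh (219), 4.97 kb at Dhh (156) and 6.31 kb at Ptch1 (170), against 2.42 kb at Smo (79.7), 1.99 kb at Gli3 (79.9), 1.04 kb at Hhip (26.2) and 0.322 kb at Gli1 (65.3). The ligands and Ptch1 thus had the broadest and highest peaks. In WT +OHT cells the scores were 147 at Shh, 151 at Ihh, 135 at Dhh and 137 at Ptch1, but 22.5 at Smo, 22.7 at Gli3, 27.3 at Gli1 and 13.7 at Hhip. In I53S +OHT cells Shh kept 0.517 kb with a score of 13.7, and the other gene with peaks was Gli2.

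Canonical PRC1 followed RING1B. PCGF2 peaks were at 8, 0, 8 and 3 members in Parental -OHT, Parental +OHT, WT +OHT and I53S +OHT cells (18.7%, 0.393%, 13.9% and 2.59% of coding genes), and CBX7 peaks at 8, 0, 7 and 0 (18.9%, 0.279%, 9.96% and 0.169%). The 3 genes with PCGF2 in I53S cells were Shh (0.769 kb, score 16.3), Ihh (1.81 kb, 22.1) and Ptch1 (1.09 kb, 11.4), against 9.65 kb at Shh and 5.61 kb at Ihh in Parental -OHT cells. CBX7, the reader of H3K27me3, had scores of 630 at Shh, 733 at Ihh, 665 at Dhh and 628 at Ptch1 in Parental -OHT cells and of 148, 148, 158 and 121 in WT +OHT cells. The CBX7 list as a whole went from 5140 peaks to 59, 2648 and 32.

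Variant PRC1 peaks were called at some members in every condition. PCGF6, a subunit that has a DNA-binding partner of its own, had peaks at 7, 4, 8 and 5 members (30.3%, 21.1%, 28.5% and 11.1% of coding genes). With a minimum score of 20 these counts were 4, 1, 6 and 1, and in I53S cells 3 of the 5 had a peak at the promoter. At Shh it kept a peak in every condition (scores 72.4, 94.0, 148 and 70.2), narrower in Parental -OHT (1.33 kb), Parental +OHT (0.815 kb) and I53S +OHT (0.945 kb) than in WT +OHT cells (6.96 kb). Dhh and Ptch1 had PCGF6 peaks in Parental -OHT and WT +OHT cells and none in the other two. RYBP, with no library assigned to Parental +OHT, had peaks at 3 members in Parental -OHT (13%), 1 in WT +OHT (5.37%) and 2 in I53S +OHT cells (3.68%). Shh was the member with RYBP in each of them, with scores of 21, 23.1 and 18.3.

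The PCGF6, RYBP, PCGF2 and RING1B peaks of I53S +OHT cells met at a single place in Shh, the last-exon stretch printed above. The RING1B peak there ran from 28458054 to 28458570 on chromosome 5 (517 bp, 8686 bp from the Shh start), the PCGF2 peak from 28457940 to 28458708 and the RYBP peak from 28457971 to 28458616, and PCGF6 overlapped it in all 4 main conditions. It covers an annotated start of the antisense 9530036O11Rik (28458274). That gene had 0 counts in Parental -OHT and 5 in Parental +OHT libraries, 2 and 3 in I53S cells, and 0 and 0 in WT cells, too few to test.

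**Figure D4:**
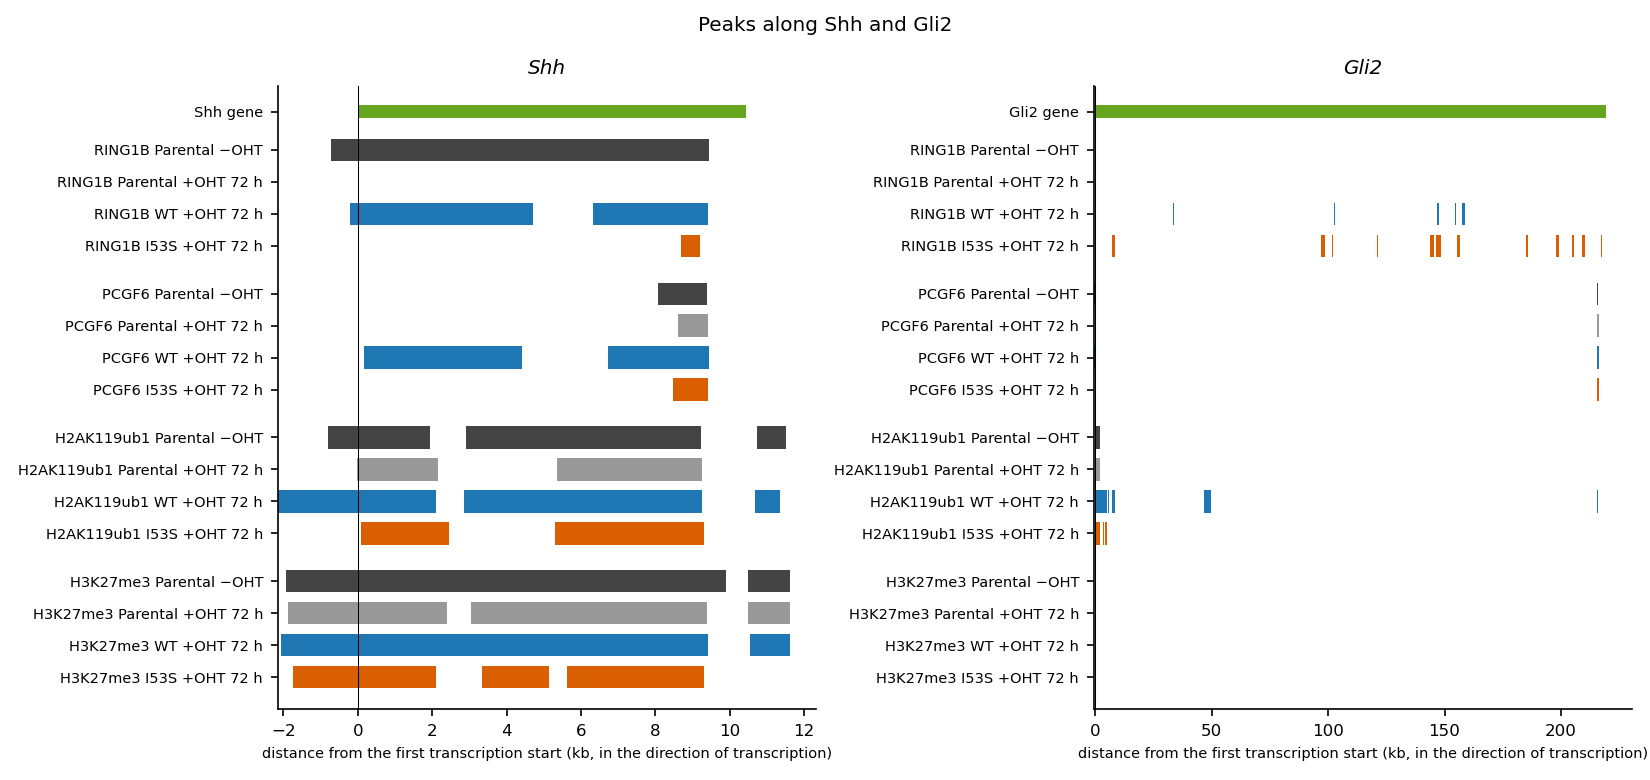
Peaks of RING1B, PCGF6, H2AK119ub1 and H3K27me3 (bars) at Shh and Gli2 in the 4 main conditions (x axis, kb from the first annotated start in the direction of transcription). At Shh the broad RING1B peak of Parental -OHT cells (10.2 kb) is absent after OHT, and 0.517 kb near the 3′ end is left in I53S cells; at Gli2 the 12 RING1B peaks of I53S cells lie inside the gene and away from its starts.

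At Gli2, as at the promoter of Gli1, RING1B peaks were lacking before OHT. Gli2 had no RING1B, PCGF2, CBX7, RYBP, SUZ12, H3K27me3, EPOP, JARID2 or AEBP2 peak in Parental -OHT cells, while H2AK119ub1, PCGF6 and MTF2 had peaks at its promoter. H2AK119ub1 scored 15.2 there in Parental -OHT, 14.9 in Parental +OHT, 40.1 in WT +OHT and 19.4 in I53S +OHT cells. RING1B peaks appeared inside the gene in the lines with a transgene: 5 in WT +OHT (494 to 1436 bp long, scores 11 to 14.6) and 12 in I53S +OHT cells (462 to 2343 bp, scores 10.0 to 13.2). The 12 lay 6732 to 146072 bp from the nearest annotated start and covered 14.8 kb in all, none of it at a promoter. All of these scores are close to the calling threshold of 10, no RING1B library of the untreated clones was used here, and with a minimum score of 20 none of the Gli2 RING1B peaks was left. Gli2 spans 219488 bp; Gli3, which spans 266792 bp, had no RING1B peak in I53S +OHT cells.

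H2AK119ub1 and H3K27me3 peaks were called at most members in every condition. H2AK119ub1 was at 8 members in each of the 4 (26.3%, 22.4%, 31.4% and 12.8% of coding genes), Hhip being the one without. At Dhh it covered 5.26 kb in Parental -OHT, 2.77 kb in Parental +OHT, 5.30 kb in WT +OHT and 1.77 kb in I53S +OHT cells, with scores of 30.1, 30.6, 51.9 and 13.5. At Shh the same lengths were 9.85, 6.09, 11.3 and 6.36 kb. A minimum score of 20 left 4, 5, 7 and 2 members with a peak in Parental -OHT, Parental +OHT, WT +OHT and I53S +OHT cells. The paper reports that H2AK119ub1 was lost in OHT-treated Parental and I53S cells, by western blot and by ChIP-seq scaled to a spike-in. The peak lists carry no such scaling, so a called peak does not show how much of the mark was left.

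H3K27me3 was at 8, 6, 8 and 5 members (30.5%, 25.6%, 30.4% and 24.1%), or 7, 6, 7 and 2 with a minimum score of 20, and was missing after OHT in both Parental and I53S cells at Hhip and Gli3. At Dhh it covered 5.84, 5.58, 6.48 and 3.64 kb with scores of 27.9, 25.5, 50.2 and 14.3, and at Shh 13, 11.7, 12.6 and 9.33 kb. Dhh was thus higher in RNA in Parental +OHT cells while a peak list from the same condition still held H3K27me3 and H2AK119ub1 within 2.5 kb of the gene. On the 300 bp Dhh promoter printed above, H3K27me3 peaks were called in 2 libraries. Their scores of 27.9 and 50.2 are those of Parental -OHT and WT +OHT cells. No H2AK119ub1 peak met this promoter in any condition. The libraries cannot show whether the RNA and the marks came from the same cells.

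Of the PRC2 subunits, SUZ12 and EPOP kept peaks at most members after OHT and AEBP2 did not. SUZ12 was at 8, 6, 8 and 7 members (31.3%, 23%, 26.1% and 14.4%). Its scores in Parental -OHT, Parental +OHT, WT +OHT and I53S +OHT cells were 603, 68.9, 298 and 18.8 at Dhh, 608, 130, 358 and 34.6 at Shh, 638, 162, 570 and 110 at Ihh, and 506, 77.6, 282 and 39.1 at Ptch1. The order of conditions was the same at these genes, with I53S last, but all were read from the same 1 library per condition. The SUZ12 lists as a whole had that order too, with 9321, 5811, 7156 and 3475 peaks. Their median scores were 40.0, 22.1, 33.7 and 17.6. The order is thus not particular to these genes, and the part of depth in it was not tested. At Dhh the covered length went from 5.76 kb to 3.26, 5.41 and 1.02 kb. EPOP was at 8, 5, 8 and 6 members (26.2%, 11.6%, 26.4% and 12.6%), with scores of 116, 21.1, 148 and 14.8 at Dhh. AEBP2 was at 4, 0, 4 and 0 (4.6%, 0.0685%, 4.91% and 0.132%), the 4 being Shh, Ihh, Dhh and Ptch1 in both Parental -OHT and WT +OHT cells.

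MTF2 and JARID2, the accessory subunits that mark PRC2.1 and PRC2.2, were followed over time. At 72 h MTF2 was at 9, 7, 9 and 7 members (54.6%, 27.6%, 27.6% and 28.1% of coding genes) and JARID2 at 8, 5, 8 and 2 (34.8%, 5.62%, 20% and 1.79%). In Parental cells the JARID2 score at Dhh was 2111 without OHT, 40.5 at 48 h and 10.5 at 72 h, and at Shh 1706, 85.2 and 26.8. In I53S cells JARID2 at Dhh went from 575 without OHT to 11.5 at 48 h and to 13.1 and no peak in the 2 libraries at 72 h, and at Shh from 489 to 31.4 and then 19.5 and 11. In WT cells Shh held 587, 399, and 496 and 326. Both 72 h libraries of WT cells were far above those of I53S cells at each ligand.

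MTF2 peaks were at more members than JARID2 peaks at 72 h in Parental and I53S cells. In Parental cells MTF2 at Dhh was 1894 without OHT, 118.5 at 48 h and 60.3 at 72 h, and in I53S cells 413, 66.4, and 21.7 and 40.3. In WT cells it was 650, 333, and 416 and 262. At 72 h MTF2 peaks remained at Shh (32.1 and 108), Ihh (74.9 and 101) and Dhh in both I53S libraries, where JARID2 at Dhh was found in 1 of 2. The 2 I53S libraries differed: JARID2 peaks were at 5 members in replicate 1 and at 2 in replicate 2, and MTF2 at 6 and 7. The untreated Parental lists of both antibodies were by far the largest (24485 and 14778 peaks), so the size of the first step moves with the list, and the part of depth in it was not tested.

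**Figure D5:**
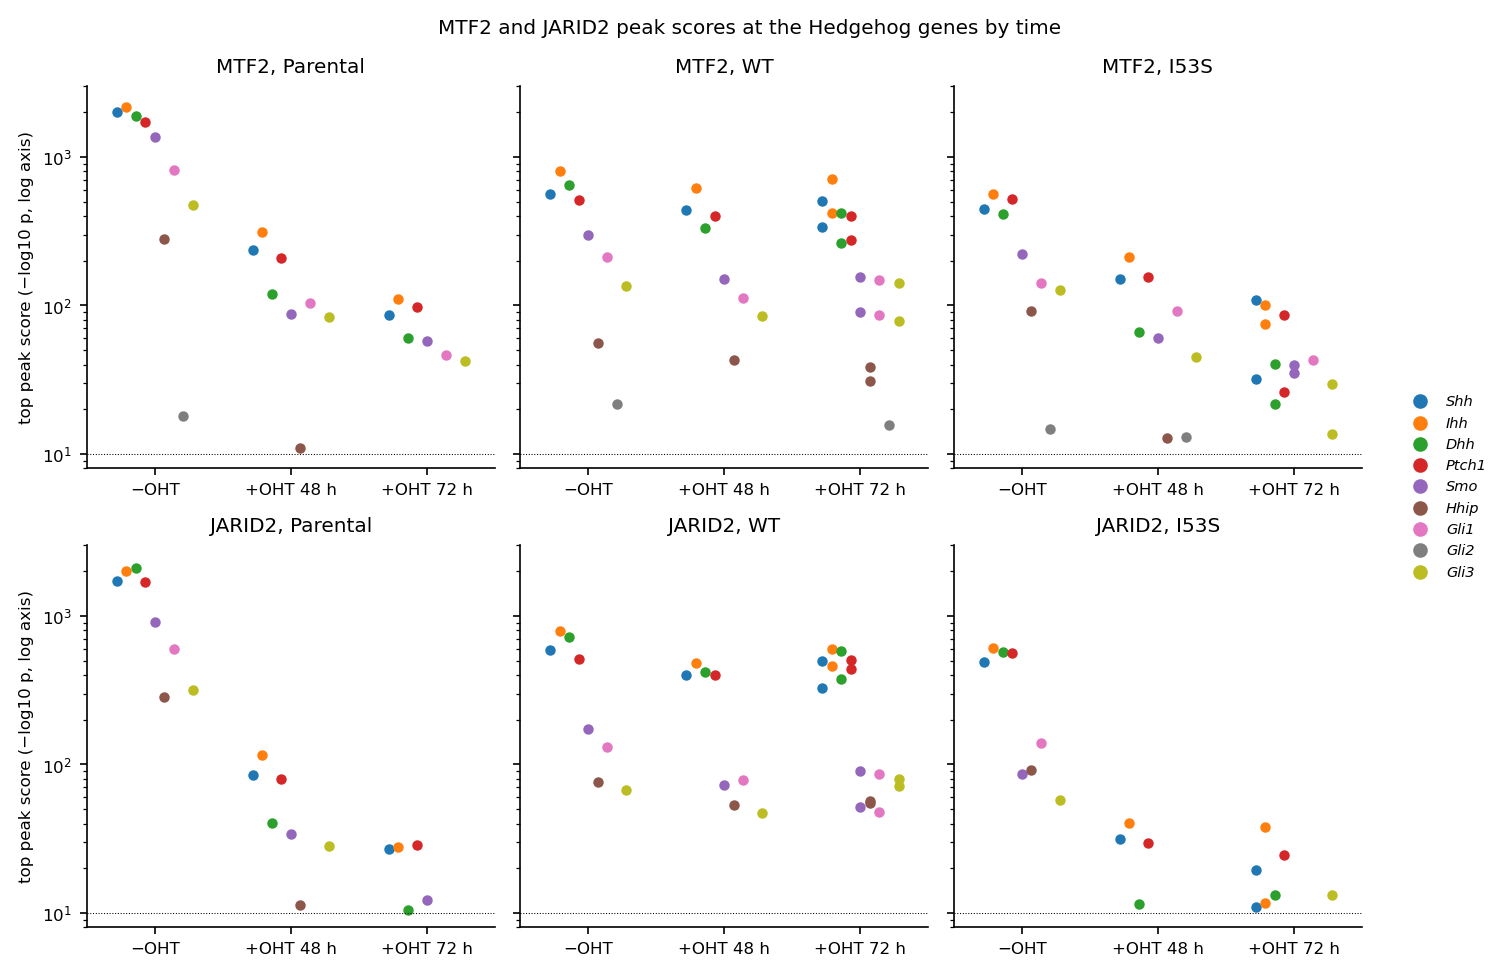
Highest MTF2 and JARID2 peak score (y axis, -log10 p, log scale; dotted line at the calling threshold of 10) at each Hedgehog gene without OHT, at 48 h and at 72 h in Parental, WT and I53S cells. In Parental cells JARID2 at Dhh goes from 2111 to 40.5 and 10.5, and in WT cells at Shh it stays between 326 and 587.

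In MTF2 KO cells fewer members had peaks of SUZ12 and H3K27me3. SUZ12 was at 6 members in Parental -OHT (12.2% of coding genes), 3 in Parental +OHT (5.57%), 6 in WT +OHT (13.6%) and 2 in I53S +OHT cells (2.18%). In the 2 conditions with 6, they were Shh, Ihh, Dhh, Ptch1, Smo and Hhip, without any GLI gene. Dhh had a score of 80.3 in MTF2 KO Parental -OHT and 83.7 in MTF2 KO WT +OHT cells and no peak in the other conditions. In MTF2 KO I53S cells the 2 members were Smo (13.5) and Gli2 (11.5). H3K27me3 was at 5 members in Parental -OHT (13.8%), 0 in Parental +OHT (1.04%), 4 in WT +OHT (8.36%) and 0 in I53S +OHT cells (4.18%), where cells with MTF2 had 8, 6, 8 and 5. The ligands and Ptch1 were the genes with H3K27me3 in both MTF2 KO conditions that had any, with scores of 20.4 and 12.5 at Shh and 11.9 and 11.8 at Dhh.

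At Gli1, peaks lay past the gene. Of its 35 peaks in 33 libraries, 31 were beyond the 3′ end, inside the neighbour Arhgap9, and the other 4 were at the promoter: H2AK119ub1 in Parental +OHT (13.2), WT +OHT (14.3) and I53S +OHT cells (10.9), and MTF2 in Parental -OHT cells (28.4). The peaks counted for Gli1 above are therefore mostly peaks of Arhgap9, whose RNA was at 5.55-6.26 CPM in Parental -OHT and 7.88-11.4 CPM in Parental +OHT libraries (log2 change 0.71, SE 0.35, adjusted p = 0.124). The 4 input libraries had no peak at any member.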

How the data were processed

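RNA-seq (SMART-seq2) and ChIP-seq were analysed from the deposited files. The authors aligned RNA reads with STAR 2.7 to mm10, removed duplicates with samblaster and made raw counts per gene with featureCounts, without strand and without multimapping reads. The authors called ChIP peaks per library with MACS2 2.1.1 after Bowtie 1.2.2, against an ESC input, and the deposited score is the -log10 p. The processed tables of the authors' own comparisons (fold changes and p-values) were not used. Every label gives 72 h of OHT; the hours used here for ChIP follow the titles, and MTF2 and JARID2 titles without an hour were taken as 72 h (replicate 1).

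The 12 Parental, WT and I53S libraries were fitted together with edgeR 4.0.16 (quasi-likelihood test, TMM, filterByExpr) in R 4.3.3, the 4 Eed fl/fl libraries separately, without a replicate block; calls needed a log2 change of 1.5 and an adjusted p under 0.05. DESeq2 1.42.0, other scalings, no filter, other thresholds, a block and left-out libraries were alternatives. The fits were tested on simulated data. Peaks needed 1 bp within 2.5 kb of the gene, and the main 72 h MTF2 and JARID2 counts use replicate 2. Counts limit precision: intervals and floors (3 counts) cover counting error only. Members and gene lists were chosen with earlier results of these data known. Other pathway genes named by rule were the 12 with the smallest adjusted p among those called in Parental cells; Mycn and Spop were named after their values were seen. Sequences come from RefSeq, with 7 of 9 promoters matched. The gene most like Gli3 is not reported here.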

Additional observations from a re-analysis of the deposited data

Results flagged for a closer look

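Among the members and the other pathway genes named here, the OHT effect differed between WT and Parental cells for Lrp2 and Hsd11b2, by the interaction term of the edgeR fit. Both were named for a small adjusted p of the OHT effect in Parental cells. That effect is part of the term, so the term is not independent of the choice. By adjusted p alone, 152 of all 18154 tested genes were higher in this term and 224 lower. Lrp2 spanned 14.4-17.2 CPM without and 66.7-71.5 CPM with OHT in Parental cells, and 12.6-13.6 and 18.8-21.9 CPM in WT cells. Its effect in WT cells was below that in Parental cells by a log2 difference of -1.5 (SE 0.33, adjusted p = 0.0224). Hsd11b2, which encodes the enzyme that inactivates glucocorticoids, spanned 0.864-2.20 CPM without and 12.1-16.0 CPM with OHT in Parental cells, and 1.53-1.92 and 2.49-2.51 CPM in WT cells. Its difference was -2.59 (SE 0.63, adjusted p = 0.0354).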

How the results depend on the processing

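Of 383 member values under other settings or with a library left out, 353 kept their direction and side of the threshold, 8 moved past it and 22 turned sign. Turned values outside left-out libraries were Ptch1 in WT cells (0.00044 with the replicate block, 0.012 with the WT groups fitted alone) and Ptch1 in Eed fl/fl cells (-0.026 with DESeq2). With a library left out, Hhip in Parental cells ranged from -0.99 to 0.29; in WT cells Ptch1 from -0.10 to 0.10, Gli1 from -0.59 to 0.16 and Gli3 from -0.011 to 0.42; in Eed fl/fl cells Shh from -0.94 to 0.94, Ihh from -0.19 to 2.27, Dhh from -0.20 to 0.83, Ptch1 from -0.0023 to 0.18, Smo from -0.83 to 0.44, Gli2 from -0.26 to 0.040 and Gli3 from -0.16 to 0.050. Dhh ranged from 3.80 to 8.59 in Parental and from 3.14 to 5.07 in I53S cells, and its differences of OHT effect from -4.31 to 0.51 (I53S minus Parental) and -5.61 to 1.75 (WT minus Parental).

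Members called by adjusted p alone were 5 in Parental cells, 2 in I53S cells and 1 between I53S and WT cells after OHT, where 1 was also called with no filter, and 0 to 1 with a library left out. All genes called by adjusted p alone were 6228 in Parental, 4856 in I53S and 402 in WT cells, 2409 between I53S and WT after OHT and 55 between I53S and Parental cells before it. By the full call, fold threshold included, all genes called were 251 in WT cells, 279 for WT minus Parental and 1201 between I53S and WT after OHT. They were 28 and 11 for I53S and WT against Parental before OHT, and 2 in Eed fl/fl cells. The counts that follow keep the full call. With no filter they were 483 in WT cells, 496 for WT minus Parental, 54 and 28 for I53S and WT against Parental before OHT, and 1 in Eed fl/fl cells. WT groups alone gave 152; Eed fl/fl cells gave 31 with DESeq2 and 6 with RLE scaling. With a library left out the counts were 25 to 261 in WT cells, 88 to 277 for WT minus Parental, 413 to 1050 for I53S against WT, 11 to 23 for I53S against Parental before OHT and 23 to 262 in Eed fl/fl cells. The cause was not tested.

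With the replicate number as a block, calls were 3176 in Parental, 2606 in I53S, 291 in WT and 161 in Eed fl/fl cells, and the number of members called was the same in each comparison. The adjusted p for Gli2 then was 0.0230 for WT minus Parental and 0.0183 and 0.0319 for WT and I53S against Parental before OHT. Among the Parental, WT and I53S libraries, same-numbered ones deviated together with r of -0.0033 to 0.30 (median 0.12) over 15 group pairs of 2 numbers, 1 of them negative. The Eed fl/fl libraries were not part of these pairs. The main fits used no block and so took no account of this shared part. Pairs of member and antibody with a peak were 72 to 76, 32 to 39, 74 to 84 and 22 to 47 over the alternatives in Parental -OHT, Parental +OHT, WT +OHT and I53S +OHT cells, the 22 with a minimum score of 20. Depth limited Shh and Ihh, which were not tested outside Eed fl/fl cells.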

Other observations

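One ChIP-seq library whose title names RYBP, and whose labels do not give its group, held 61 peaks, 0 of them within 2.5 kb of a Hedgehog gene.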
